A study of Mus musculus with 22 samples.

Results

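The TNF and NF-kB pathway was followed here through 10 genes, chosen by name: the ligand Tnf, its receptors Tnfrsf1a and Tnfrsf1b, the NF-kB subunits Nfkb1, Nfkb2, Rela and Relb, the inhibitor Nfkbia, and the regulators Tnfaip3 and Birc3. All 10 were among the 21995 genes measured by RNA-seq of whole spinal cord, with 1 library per mouse. For aging, 8 old wild-type C57BL/6 males of 18 to 24 months were compared with 8 young wild-type males of 3 to 4 months, all prepared with the Roche KAPA HyperPrep kit. For amyotrophic lateral sclerosis (ALS), 3 SOD1-G93A mice were compared with 3 wild-type controls, all C57BL/6 mice labelled 5 to 6 months and prepared with Illumina TruSeq, each group holding 2 females and 1 male. SOD1-G93A mice (labelled G93a) carry a high-copy transgene of mutant human SOD1 and develop motor neuron disease, so they model a single familial form of ALS. The kit coincided with the experiment, so the kit and the experiment cannot be told apart, and levels were compared only within an experiment.

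TNF is a cytokine that microglia and other immune cells release, and it acts through a broadly expressed receptor (Tnfrsf1a) and a second receptor that is richest in immune and endothelial cells (Tnfrsf1b). The receptor complex activates the I-kappa-B kinases, which mark I-kappa-B-alpha (Nfkbia) for destruction and so free dimers of Rel-family proteins to enter the nucleus. A slower branch of the pathway processes the Nfkb2 precursor, whose product pairs with RelB. Among the genes NF-kB switches on are several of its own parts and brakes, including Nfkbia, Tnfaip3, Birc3, Nfkb2 and Relb. NF-kB activity itself depends on where these proteins are in the cell, which transcript levels do not show.

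NF-kB dimers bind kappa-B sites, short DNA elements found near the starts of many of the genes they switch on. The kappa-B consensus of 10 bases was searched on both strands in RefSeq promoter windows of 300 bases (250 before the start and 50 after it, GRCm38.p6). Windows were at hand for 8 of the 10 genes, not for Nfkb1 and Relb, and 3 of the 8 genes (Nfkb2, Nfkbia and Tnfaip3) held a match, or 37.5%. Of all 27025 genes with a window, 5.14% held one. Nfkbia had its match at -29 to -20 from the start, Tnfaip3 at -125 to -116 and -12 to -3 in 1 of its 2 windows, and Nfkb2 at -39 to -30 and -11 to -2, among other matches in its 3 windows. Birc3, another gene known to be induced by NF-kB, had 0 matches. The stretches are shown because the inhibitor Nfkbia, the regulator Tnfaip3 and the subunit Nfkb2 were the members with a match. The 30 bases shown lie at chr12:55492657-55492686 (minus strand) for Nfkbia, chr10:19015516-19015545 and chr10:19015403-19015432 (minus strand) for the distal and proximal Tnfaip3 matches, and chr19:46304688-46304717 and chr19:46304716-46304745 (plus strand) for those of Nfkb2. Capitals mark the match and lower case the 10 bases on either side.
Nfkbia: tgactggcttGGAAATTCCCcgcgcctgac
Tnfaip3, distal: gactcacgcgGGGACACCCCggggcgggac
Tnfaip3, proximal: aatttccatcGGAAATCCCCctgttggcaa
Nfkb2, distal: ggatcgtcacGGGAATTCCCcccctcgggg
Nfkb2, proximal: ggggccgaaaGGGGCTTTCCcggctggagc
The Nfkbia element and the proximal Tnfaip3 element match the consensus on the opposite strand. The distal Nfkb2 element reads alike on both strands. A match describes the letters of these windows and was not linked to binding, which was not measured.

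In old mice the receptors had the largest log2 fold changes among the 9 members with enough counts to be tested. Of these 9 members, 7 were higher in old than in young mice at an adjusted p under 0.05 (edgeR's quasi-likelihood test, Benjamini-Hochberg adjustment over all 13647 genes tested) and 0 were lower, beside 13.5% of all genes tested that were higher and 12.9% that were lower. In SOD1-G93A mice 8 of 9 were higher than in controls and 0 were lower, beside 18.4% and 15.5% of 14386 genes. The median log2 fold change of the tested members was 0.57 in aging (range 0.05 to 1.06) and 1.33 in ALS (range 0.61 to 2.09), against -0.00 and 0.00 over all genes tested. With the study's added limit of a log2 fold change beyond 1, which 2.18% of genes passed as higher in aging and 8.5% in ALS, the members that passed were Tnfrsf1b in aging, and Tnfrsf1a, Tnfrsf1b, Nfkb2, Tnfaip3 and Birc3 in ALS. In bulk tissue such as this, a change in the number of cells of a type and a change in the RNA of each cell cannot be told apart.

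**Figure D1:**
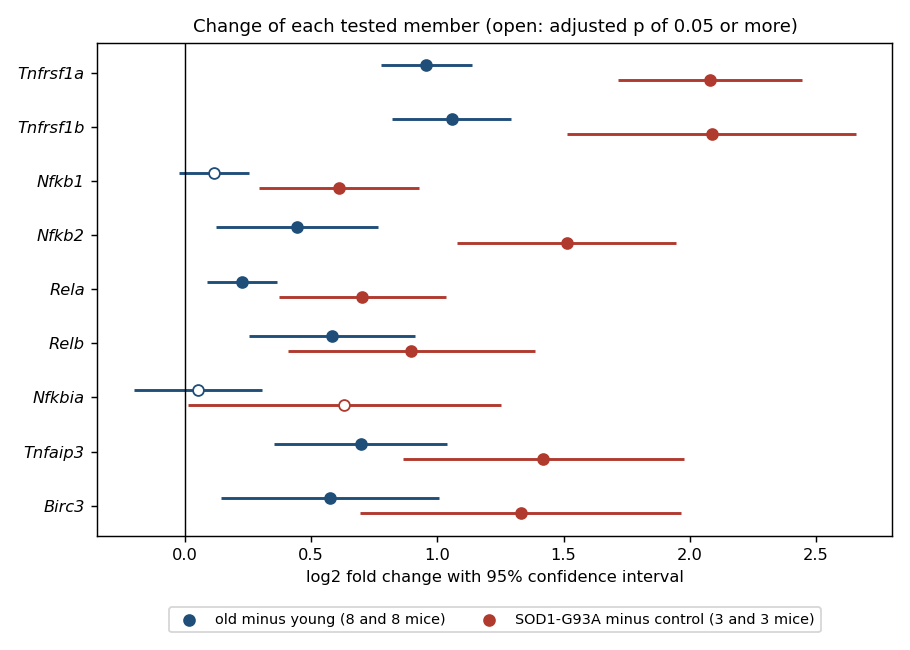
Log2 fold change of each of the 9 tested members (horizontal axis) in old against young mice (blue) and in SOD1-G93A against control mice (red), with 95% confidence intervals from the quasi-likelihood fit; open points did not pass. All 18 points lie above 0, from 0.05 for Nfkbia in aging to 2.09 for Tnfrsf1b in ALS.

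The libraries of young and old mice held 5078092 to 9358055 counts and those of the ALS experiment 9675610 to 13219797. Values below are CPM, counts relative to library sizes scaled by the TMM method, and a count of 3, taken as the least this depth can show, corresponded to 0.231 to 0.582 CPM. Such limits cover these libraries and their counting error, and the tests also take in the spread between the mice of a group. Markers of astrocytes and neurons were abundant in every library, as spinal cord should show; the lowest sum over either list was 2415 CPM, for 6 neuronal genes in a SOD1-G93A mouse. Prx, a gene of myelinating Schwann cells, which belong to nerve roots, was at 17.4 CPM in old library E and 20.9 CPM in SOD1-G93A library A, and at most 2.08 CPM in the other 20 libraries. Libraries are lettered here within each group only to name them.

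Tnf itself (ENSMUSG00000024401, chr17:35199381-35202007, minus strand) was barely detected. The 8 young libraries held 1, 3, 0, 0, 0, 0, 0 and 0 counts of Tnf, 4 in 62562171 counts in all. The 8 old libraries held 1, 8, 2, 5, 2, 4, 8 and 3, or 33 in 58962502. No young library had over 3 counts, whereas 4 of the 8 old libraries did, and the groups overlapped. The gene failed the count filter, so its mean level was compared directly: 0.0581 ± 0.122 CPM in young and 0.553 ± 0.336 CPM in old mice (SD, n = 8 each; exact two-sided permutation p = 0.000932, smallest possible 0.000155). Without the count filter, edgeR gave it an adjusted p of 0.00279 and DESeq2 0.00375.

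In the ALS experiment Tnf had 3, 0 and 0 counts in the controls and 18, 1 and 11 in the SOD1-G93A mice. SOD1-G93A library B, with 1 count, lay within the control range. The means were 0.0949 ± 0.164 and 0.870 ± 0.719 CPM (SD, n = 3 each), with an exact two-sided permutation p of 0.2, where the smallest that 3 against 3 allows is 0.1. Tnf did not pass in the unfiltered edgeR fit (adjusted p = 0.0606) or with DESeq2 (0.0696). Without library B it passed the count filter and the edgeR test (adjusted p = 0.00814), so the edgeR call depends on that library. The exact permutation p was then 0.1, the smallest possible there. Tnf also passed the count filter without any single control library, where edgeR's adjusted p was 0.0583 to 0.168.

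Tnfrsf1a (ENSMUSG00000030341, chr6:125349362-125362484, plus strand) encodes the receptor with an intracellular death domain, through which TNF triggers both NF-kB and cell death. It lay at 18.2 to 22.2 CPM in the young mice, with a median of 19.3. In the old mice it lay at 27.0 to 47.0 CPM, with a median of 39.3. Every old mouse was above every young mouse, an ordering shown by 3.66% of the genes tested in aging. In log2 terms the difference was 0.96 (SE 0.087, adjusted p = 1.91e-08). The controls of the ALS experiment had 17.7, 17.8 and 18.7 CPM and the SOD1-G93A mice 87.5, 57.3 and 83.9. All SOD1-G93A mice were above all controls, which was so for 25.7% of the genes tested in ALS, and the log2 fold change was 2.08 (SE 0.160, adjusted p = 0.000124).

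Tnfrsf1b (ENSMUSG00000028599, chr4:145213463-145246870, minus strand) encodes the receptor that lacks a death domain and responds best to membrane-bound TNF. Its level was about a log2 step higher in old mice. Young mice had 5.65 to 7.04 CPM (median 5.90) and old mice 9.15 to 15.96 (median 13.3), again without overlap. This was a log2 fold change of 1.06 (SE 0.114, adjusted p = 2.72e-07). In ALS, controls had 5.69, 6.15 and 7.38 CPM and SOD1-G93A mice 36.2, 17.8 and 27.8. The groups did not overlap, and the log2 fold change was 2.09 (SE 0.253, adjusted p = 0.000700). Both receptors passed in aging and in ALS whichever library was left out.

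**Figure D2:**
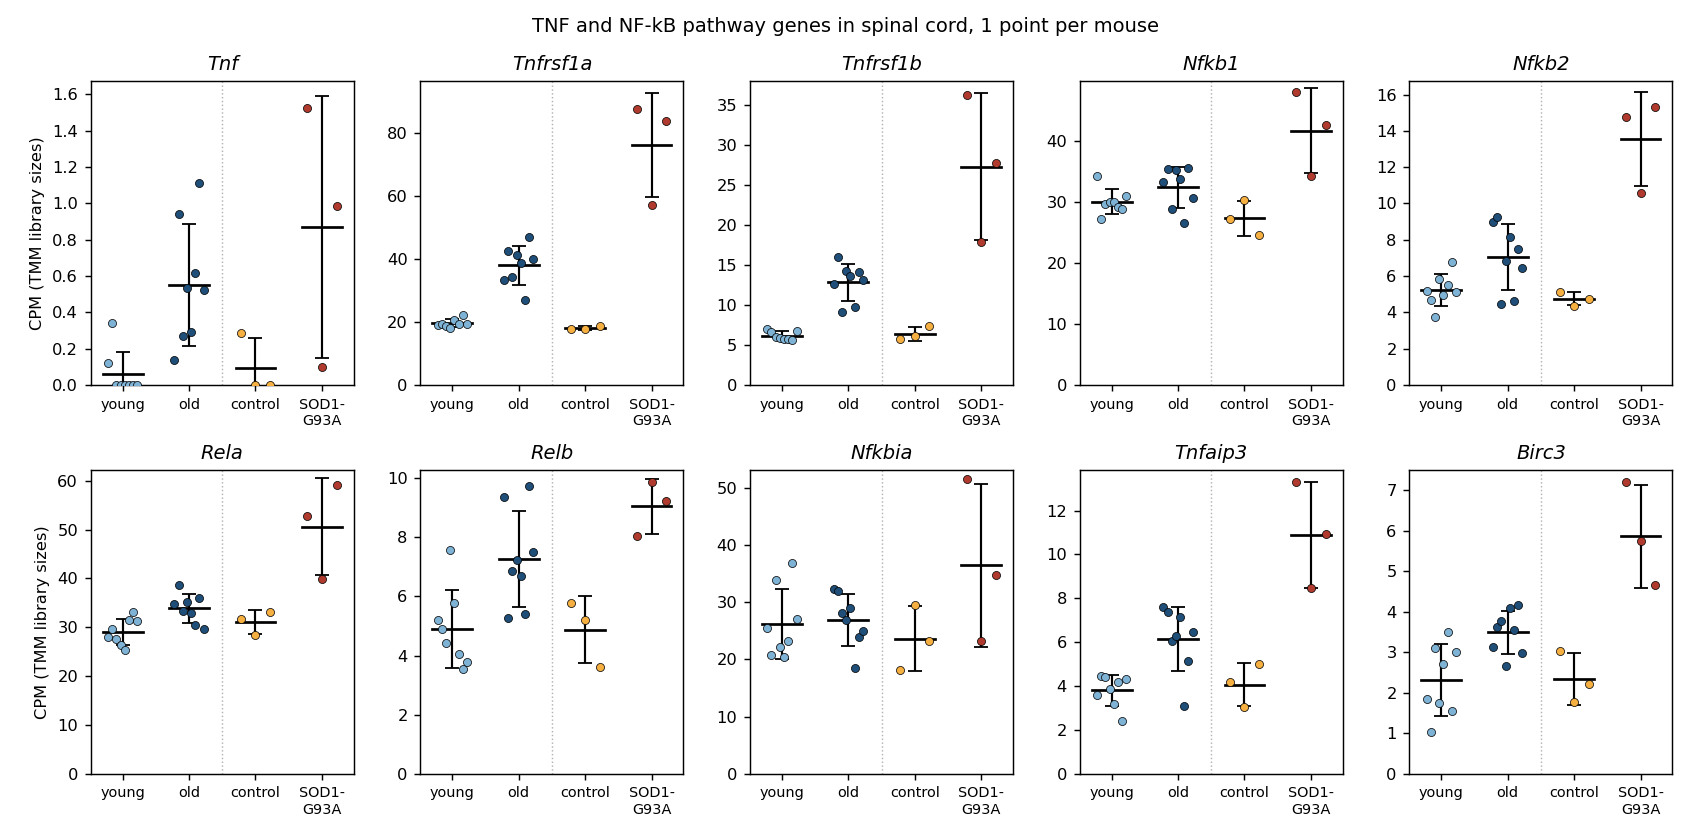
Level of each of the 10 genes in CPM (vertical axes start at 0) in young, old, control and SOD1-G93A mice, 1 point per mouse, with the mean (bar) and SD (whiskers). Both receptors separate old from young and SOD1-G93A from control mice, while Nfkbia overlaps in both experiments.

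The subunits of NF-kB had smaller log2 fold changes than the receptors in both comparisons, from 0.11 to 0.58 in aging and from 0.61 to 1.51 in ALS. Nfkb1 (ENSMUSG00000028163, chr3:135584655-135691547, minus strand) encodes the precursor of a DNA-binding subunit of the classical dimer. It had 27.2 to 34.2 CPM in young mice (median 29.8) and 26.5 to 35.6 in old mice (median 33.5), so that the old mice spanned the whole young range. It did not pass in aging (log2 fold change 0.11, 95% interval -0.02 to 0.25, adjusted p = 0.214). In ALS it had 27.1, 30.3 and 24.6 CPM in controls and 48.0, 34.2 and 42.7 in SOD1-G93A mice, without overlap. That difference passed, at a log2 fold change of 0.61 (SE 0.140, adjusted p = 0.0113). The call was lost without control library C (adjusted p = 0.0513) or without SOD1-G93A library C (0.0509).

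Rela (ENSMUSG00000024927, chr19:5637483-5648130, plus strand) encodes the transactivating partner of that dimer. Young mice had 25.3 to 33.1 CPM (median 28.8) and old mice 29.5 to 38.6 (median 34.1). The groups overlapped, with 5 of 8 old mice above every young mouse. The log2 fold change in aging was 0.22 (SE 0.067, adjusted p = 0.0152), the smallest among the members that passed. In ALS, controls had 31.8, 28.4 and 33.2 CPM and SOD1-G93A mice 52.9, 39.8 and 59.2, without overlap. The difference passed, at a log2 fold change of 0.70 (SE 0.146, adjusted p = 0.00783).

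Nfkb2 (ENSMUSG00000025225, chr19:46304320-46312385, plus strand) encodes the precursor processed in the slower branch. Its exons overlap those of Psd and of a long non-coding RNA on the other strand, and whether counting used strand was not given in the sources used here, so reads of these genes may be mixed. It had 3.76 to 6.78 CPM in young mice (median 5.15) and 4.44 to 9.27 in old mice (median 7.16), with 5 of 8 old mice above every young mouse. It was higher in old mice by 0.44 on the log2 scale (SE 0.156, adjusted p = 0.0382). This call was lost when any of 11 of the 16 mice was left out (all but young D and G and old C, F and H), with adjusted p up to 0.0869. In ALS, Nfkb2 had 5.12, 4.38 and 4.76 CPM in controls and 14.7, 10.6 and 15.3 in SOD1-G93A mice, far apart relative to their spread. The log2 fold change was 1.51 (SE 0.192, adjusted p = 0.000886), the largest among the subunits, and passed whichever library was left out.

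Relb (ENSMUSG00000002983, chr7:19606217-19629438, minus strand) encodes the partner of the processed Nfkb2 product. Young mice had 3.53 to 7.57 CPM (median 4.65) and old mice 5.28 to 9.72 (median 7.06). Young libraries D and E overlapped the old mice, and the log2 fold change was 0.58 (SE 0.160, adjusted p = 0.00892). In ALS, controls had 5.79, 5.22 and 3.61 CPM and SOD1-G93A mice 8.05, 9.87 and 9.22, without overlap. Their log2 fold change was 0.90 (SE 0.216, adjusted p = 0.0136). Without SOD1-G93A library C the adjusted p was 0.0541.

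The inhibitor was the member that passed in neither comparison. Nfkbia (ENSMUSG00000021025, chr12:55489410-55492647, minus strand) had 20.3 to 36.9 CPM in young mice (median 24.3) and 18.5 to 32.4 in old mice (median 27.5). The old mice lay mostly inside the young range. Its log2 fold change in aging was 0.05 with a 95% interval of -0.20 to 0.30 (adjusted p = 0.809). In ALS it had 18.1, 29.5 and 23.2 CPM in controls and 51.5, 23.2 and 34.8 in SOD1-G93A mice. Library B lay among the controls, and the log2 fold change of 0.63 had an interval of 0.01 to 1.25 (adjusted p = 0.106). Without library B Nfkbia passed (log2 fold change 0.87, adjusted p = 0.00575), as it did in a fit that took its spread from all 22 libraries (0.0379).

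The induced regulators were higher in both comparisons. Tnfaip3 (ENSMUSG00000019850, chr10:19000910-19015657, minus strand) encodes a ubiquitin-editing enzyme that shuts the pathway off. Young mice had 2.40 to 4.44 CPM (median 4.03) and old mice 3.08 to 7.62 (median 6.38). Of the 8 old mice, 7 were above every young mouse, and old library F was the exception. Its log2 fold change in aging was 0.70 (SE 0.166, adjusted p = 0.00306). In ALS, controls had 4.18, 3.03 and 4.99 CPM and SOD1-G93A mice 13.3, 8.46 and 10.9, without overlap, for a log2 fold change of 1.42 (SE 0.246, adjusted p = 0.00377).

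Birc3 (ENSMUSG00000032000, chr9:7848699-7873186, minus strand) encodes a ubiquitin ligase of the receptor complex that protects cells from death. It had 1.02 to 3.51 CPM in young mice (median 2.28) and 2.67 to 4.17 in old mice (median 3.59), with 5 of 8 old mice above every young mouse. Its log2 fold change was 0.57 (SE 0.208, adjusted p = 0.0449). This call was lost when any of 9 of the 16 mice was left out (young A, B, D and G and old A, B, C, E and G), with adjusted p up to 0.0924. In ALS, controls had 3.04, 1.77 and 2.23 CPM and SOD1-G93A mice 7.20, 5.74 and 4.66. They did not overlap, and the log2 fold change was 1.33 (SE 0.281, adjusted p = 0.00827).

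Of the 9 members tested, 8 had every SOD1-G93A mouse above every control, beside 25.7% of all genes tested in ALS. SOD1-G93A library B held the lowest value of its group for 8 of the 10 members. In aging, 2 of 9 had every old mouse above every young mouse, beside 3.66% of all genes tested, and old library F was lowest for 4 of the 10.

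Whether the change in ALS differed from that in aging was tested as a difference of the log2 fold changes in a fit of all 22 libraries (edgeR's quasi-likelihood test). It passed for 5 of 9 members, each with the larger rise in ALS. Of all 14502 genes tested, 11.6% passed with a more positive and 14.2% with a more negative change in ALS. The receptors had differences of 1.10 for Tnfrsf1a (SE 0.176, adjusted p = 7.56e-05) and 1.001 for Tnfrsf1b (SE 0.243, adjusted p = 0.00328). Nfkb2 had a difference of 1.04 (SE 0.269, adjusted p = 0.00523), Nfkb1 of 0.47 (SE 0.137, adjusted p = 0.0126) and Rela of 0.45 (SE 0.142, adjusted p = 0.0194). The differences for Relb (0.29, 95% interval -0.30 to 0.87), Nfkbia (0.56, -0.02 to 1.13), Tnfaip3 (0.70, 0.08 to 1.31) and Birc3 (0.73, -0.04 to 1.49) did not pass after adjustment. The call for Nfkb1 was lost without control library C (0.40, adjusted p = 0.0560) or SOD1-G93A library A (0.36, adjusted p = 0.0790), and that for Rela without control library B (0.39, 0.0740), SOD1-G93A library A (0.43, 0.0571) or SOD1-G93A library C (0.33, 0.108). Without SOD1-G93A library B, the differences for Nfkbia (0.78, adjusted p = 0.0212) and Tnfaip3 (0.83, adjusted p = 0.0369) passed. Age, sex and kit also differed between the experiments, and their part in these differences was not tested.

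Per transcript length, the order of the members changed between groups. Levels here are FPKM, fragments per length of transcript and depth of library, recovered from the deposited log2(FPKM + 1). In young mice Nfkbia had the highest median, 14.5 FPKM, above Nfkb1 (10.1), Rela (9.91) and Tnfrsf1a (9.01), whose ranges overlapped from each gene to the next. A lower tier followed, from Relb (2.35) through Nfkb2 (1.56), Tnfrsf1b (1.46) and Birc3 (1.03) to Tnfaip3 (0.865), again with overlapping neighbours, and the median of Tnf was 0. In old mice Tnfrsf1a came first at 19.1 FPKM, overlapping Nfkbia at 17.3, and Tnfrsf1b (3.34) stood beside Relb (3.35). In controls Nfkbia led with 18.7 FPKM and Tnfrsf1a was the fourth with 8.09. In SOD1-G93A mice Tnfrsf1a led with 39.1 FPKM, overlapping Nfkbia (23.8), and Tnfrsf1b was the fifth with 7.09. Tnf had the lowest median in all 4 groups, with 0.32 FPKM in old and 0.67 in SOD1-G93A mice.

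**Figure D3:**
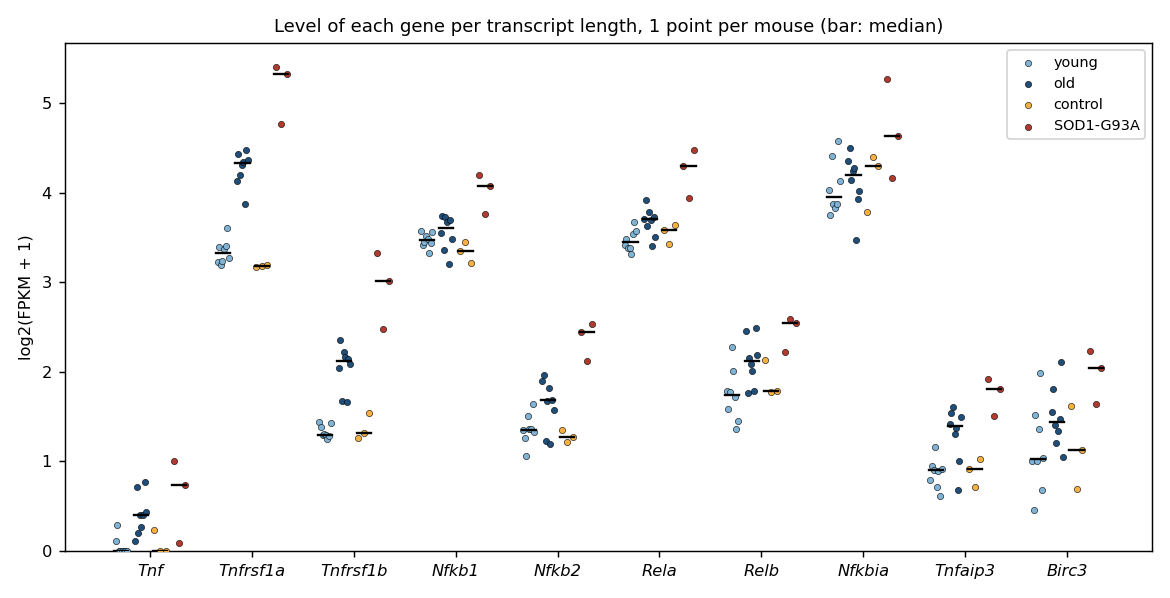
Level of each gene per transcript length, as log2(FPKM + 1) (vertical axis), 1 point per mouse with the median as a bar, by group. Tnfrsf1a passes from the fourth place in young and control mice to the first in old and SOD1-G93A mice, and Tnf is lowest throughout.

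The wider pathway was read through 100 other genes in 4 lists. Of the 67 of them tested in aging, 28 were higher and 3 lower in old mice, and of the 80 tested in ALS, 44 were higher and 7 lower. For these counts and those of each list below, the shares over all genes tested were 13.5% higher and 12.9% lower in aging and 18.4% and 15.5% in ALS. The count filter could keep a gene through its higher group alone. The genes tested therefore differed between the comparisons, and list medians in aging and ALS need not cover the same genes. Among 30 genes known to be induced by NF-kB, 14 of the 18 tested in aging were higher and 0 lower, with a median log2 fold change of 0.66. In ALS 19 of 23 were higher and 2 lower, with a median of 2.49. Where at least 10 counts were asked of every library, 13 of these genes were tested in aging, of which 10 were higher and 0 lower. Of all 12633 genes tested that way, 1721 were higher and 1706 lower. These are inflammatory genes that other factors can also induce.

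Within that list Tlr2, a receptor for bacterial lipoproteins, rose from 4.28 ± 0.833 CPM in young to 16.6 ± 4.42 CPM in old mice (SD, n = 8 each; log2 fold change 1.95, edgeR adjusted p = 8.67e-09). In ALS it rose by a log2 fold change of 3.03 (adjusted p = 0.000217). Cd44, an adhesion receptor for hyaluronan, had a log2 fold change of 1.005 in aging (SE 0.080, adjusted p = 2.22e-09), and complement C3 of 1.31 (adjusted p = 2.32e-08). The chemokine Ccl3 was near the floor in young mice (at most 4 counts in a library, mean 0.0936 CPM) and at 5.14 CPM in old mice (adjusted p = 8.67e-09). In the ALS controls it had at most 3 counts, against a mean of 15.9 CPM in SOD1-G93A mice (adjusted p = 8.14e-05). Plau, the urokinase protease, rose from 1.87 ± 0.373 to 37.7 ± 10.4 CPM in ALS (SD, n = 3 each; log2 fold change 4.33, adjusted p = 8.14e-05), and Icam1, an adhesion molecule for leukocytes, by a log2 fold change of 2.49 (adjusted p = 0.000176). The genes lower in ALS were Mmp9, a matrix protease (log2 fold change -1.59), and Sod2, the mitochondrial superoxide dismutase (-0.61), which were named after their values were seen.

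The counts for the I-kappa-B kinases, other inhibitors and other NF-kB proteins were near those shares in both directions. Of 14 genes tested, 3 were higher and 3 lower in aging (median log2 fold change 0.08), and 4 were higher and 3 lower in ALS (median 0.17). Bcl3, a nuclear I-kappa-B protein that acts with the Nfkb1 and Nfkb2 products, rose most in this list. It went from 0.822 ± 0.360 to 2.95 ± 0.949 CPM in aging (SD, n = 8 each; log2 fold change 1.84, edgeR adjusted p = 1.50e-05). In ALS it went from 0.759 ± 0.411 to 13.4 ± 4.84 CPM (SD, n = 3 each; log2 fold change 4.16, adjusted p = 0.000282). Traf3, which holds the slower branch in check, fell in aging (log2 fold change -0.28, adjusted p = 6.98e-05), as did Tax1bp1, an adaptor of Tnfaip3 (-0.25, adjusted p = 0.00162), and the kinase subunit Ikbkb (-0.18, adjusted p = 0.0356). In ALS Map3k14, the kinase that drives the slower branch, rose by a log2 fold change of 1.42 (adjusted p = 0.00524) and the nuclear I-kappa-B protein Nfkbiz by 1.11 (adjusted p = 0.0152), while Btrc, of the ligase that recognizes marked I-kappa-B, fell (-0.47, adjusted p = 0.0103).

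Most of the tested machinery of TNF release and of the receptor complex did not pass in aging, and more of it passed in ALS. Of 22 genes, 19 were tested in aging, of which 4 were higher and 0 lower (median log2 fold change 0.09), and 20 in ALS, of which 8 were higher and 1 lower (median 0.29). Rhbdf2, a partner that brings the TNF-releasing protease to the cell surface, had a log2 fold change of 1.27 in aging (adjusted p = 0.000759) and 2.03 in ALS (adjusted p = 0.00264). The protease itself, Adam17, had 27.2 CPM in both young and old mice and rose by a log2 fold change of 0.87 in ALS (SE 0.138, adjusted p = 0.00260). Casp8, the caspase of the death-inducing complex, rose in aging (0.79, adjusted p = 0.00227) and in ALS (1.62, adjusted p = 0.00178). Its restraining homologue Cflar (0.28, adjusted p = 0.00971) and the adaptor Fadd (0.38, adjusted p = 0.0138) rose in aging, and Tab2, a partner of the kinase below the receptor, rose in ALS (0.48, adjusted p = 0.00441).

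Many of the 34 other ligands and receptors of the TNF superfamily were too low to be tested. Of the 16 tested in aging, 7 were higher and 0 lower, with a median log2 fold change of 0.27. Of the 23 tested in ALS, 13 were higher and 1 lower, with a median of 0.79 over this larger set of genes. Ltbr, the lymphotoxin beta receptor that feeds the slower branch, rose from 11.6 ± 1.38 to 17.4 ± 1.56 CPM in aging (SD, n = 8 each; log2 fold change 0.60, edgeR adjusted p = 8.22e-06). In ALS it rose by a log2 fold change of 1.75 (adjusted p = 0.000217). Tnfsf12, the ligand TWEAK (0.53, adjusted p = 0.000131), the neurotrophin receptor Ngfr (0.70, adjusted p = 0.00201) and the death receptor Fas (0.84, adjusted p = 0.00802) rose in aging. In ALS the receptor of TWEAK, Tnfrsf12a (1.49, adjusted p = 0.00165), and the receptor of RANKL, Tnfrsf11a (1.22, adjusted p = 0.00164), rose. The ligand Tnfsf8 was near the floor in controls (at most 6 counts in a library, mean 0.352 CPM) and at 4.19 CPM in SOD1-G93A mice (3.58, adjusted p = 0.00139). Lta and Ltb, which are among the ligands of Ltbr on this list but not all of them, stayed under the count filter in both experiments. Their means were at most 0.42 CPM in any group, and they were named after their values were seen.

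Between the comparisons, 18 of the 80 list genes tested had a more positive log2 fold change in ALS than in aging. Another 5 had a more negative one, which includes genes that fell in ALS. The shares over all genes were the 11.6% and 14.2% given above.

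**Figure D4:**
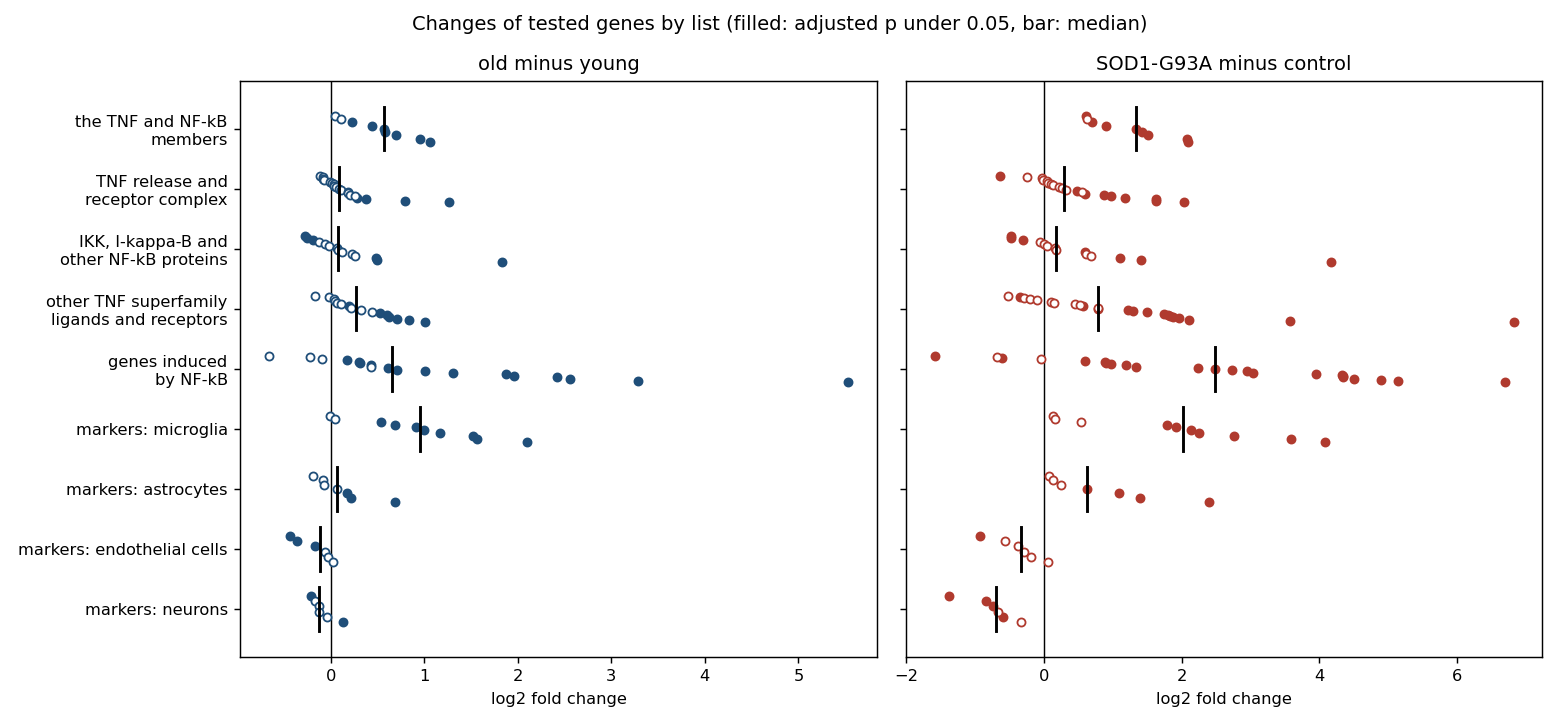
Log2 fold changes (horizontal axis) of the tested genes of the 10-gene set, the 4 pathway lists and 4 lists of cell type markers, in aging (left) and ALS (right); filled points passed and bars mark medians. The genes induced by NF-kB reach a median of 2.49 in ALS, near the microglial markers at 2.02, while the list of I-kappa-B kinases and other NF-kB proteins is centred at 0.17.

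Markers of microglia, which express both TNF receptors, moved with the members. Of 10 microglial markers 8 were higher in old mice (median log2 fold change 0.96), and their summed level was 388 to 428 CPM in young and 582 to 906 CPM in old mice. In ALS 7 of 10 were higher (median 2.02), and the sum went from 407 to 477 CPM in controls to 1406 to 2456 CPM in SOD1-G93A mice. P2ry12, a homeostatic microglial receptor, did not pass in either comparison (log2 fold change 0.05 and 0.13), and Tmem119 passed in aging (0.54) and not in ALS (0.53, adjusted p = 0.0599). Old library F had the lowest microglial sum of the old mice (582 CPM), and SOD1-G93A library B the lowest of its group (1406 CPM). The part of microglia in the members' changes was not tested.

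Other cell markers moved in part. The summed level of 7 markers of monocytes and border macrophages went from 8.20 to 12.6 CPM in young to 46.9 to 264 CPM in old mice, and from 8.45 to 14.8 to 375 to 995 CPM in ALS. Of these markers 1 was tested in aging and was higher. In ALS 4 were tested, of which 2 were higher and 0 lower. Nearly all of the summed level was Lyz2, which activated microglia also express (175 CPM in old and 646 in SOD1-G93A mice) and which was named after its values were seen. Ccr2 stayed at means of at most 0.91 CPM in any group, and Ly6c2 at most 1.46. The sums over markers of neutrophils (S100a8 and S100a9 among them) and of B cells (Ms4a1 among them) were at most 2.58 and 3.08 CPM in any library. The sum over T cell markers (Cd3d and Cd3e among them) was low, at 0.549 to 2.03 CPM in young and 2.04 to 3.62 CPM in old mice. In the ALS experiment it was 0.845 to 1.61 CPM in controls and 1.95 to 2.60 CPM in SOD1-G93A mice. The 2 ranges in aging lay closer than 3 counts, which were 0.339 CPM in young library E and 0.438 CPM in old library E. Of single genes tested, 3.66% in aging and 25.7% in ALS had groups apart in this direction. No T cell marker passed the count filter, and their part in the members' changes was not tested. Ly6g was at 0 in every library, Elane in those of the aging experiment and Ms4a1 in those of the ALS experiment. Of 7 astrocyte markers 3 were higher in aging and 4 in ALS, where Gfap had a log2 fold change of 2.40 and Aqp4 of 1.40. Of 6 endothelial markers 3 were lower in aging and 1 in ALS; Pecam1 (log2 fold change 0.03 and -0.29) and Cldn5 (-0.03 and -0.18) passed in neither. Of 6 oligodendrocyte markers 1 was higher (Mbp, 0.16) and 2 lower in aging (median -0.16), and 0 passed in ALS by edgeR (median -0.18; 1 at an unadjusted p under 0.05, and 1 lower by DESeq2). Of 6 neuronal markers 1 was higher and 1 lower in aging, and 4 were lower in ALS, with log2 fold changes of -0.74 for Rbfox3 and -0.85 for Snap25. Prx failed the count filter in aging and did not pass in ALS (2.89, adjusted p = 0.0730). Without old library E the calls of Nfkb2 (0.41, adjusted p = 0.0730) and Birc3 (0.54, adjusted p = 0.0818) were lost. This was not particular to library E, as leaving out any of 11 mice for Nfkb2 or 9 for Birc3, of 16, did the same. Without SOD1-G93A library A all 8 calls in ALS passed.

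The relation of each member to the microglial list was examined within each age group, and differences between members in this relation were not tested. The log2 CPM of each tested member was set against the mean log2 CPM of the 10 markers over the 8 old mice and, apart, over the 8 young mice, which gave 18 relations with exact two-sided permutation tests. Nfkb1, which did not pass between old and young, had the highest r in old mice (Pearson's r = 0.95, exact permutation p = 0.000868, adjusted over the 18 p = 0.0156; Spearman's rho = 0.90, p = 0.00456, adjusted p = 0.0435). It was 0.97 without libraries F and H, the farthest from the median of the list. Tnfrsf1b (r = 0.77, exact permutation p = 0.0272, adjusted p = 0.0816) had a rho of 0.88 (p = 0.00724, adjusted p = 0.0435) and an r of 0.98 without those libraries. Rela (r = 0.75, exact permutation p = 0.0268, adjusted p = 0.0816) also had a rho of 0.88 (p = 0.00724, adjusted p = 0.0435) and an r of 0.59 without them. Tnfrsf1a had an r of 0.82 and a rho of 0.76, and Nfkb2 of 0.76 and 0.69, which did not pass after adjustment.

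For the other members no relation passed after adjustment. Tnfaip3 (r = 0.82, rho = 0.38) and Nfkbia (r = 0.79, rho = 0.43) rested on libraries F and H, without which r was 0.14 and -0.04. Relb had an r of 0.38 and a rho of -0.05, and Birc3 of 0.01 and 0.14. In young mice no relation passed after adjustment; the strongest was Nfkbia at r = -0.83 (exact permutation p = 0.0130, adjusted p = 0.0816), and -0.19 without libraries C and G. These values share each library's depth and scaling, and the groups of 3 in ALS are too small for such a relation.

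**Figure D5:**
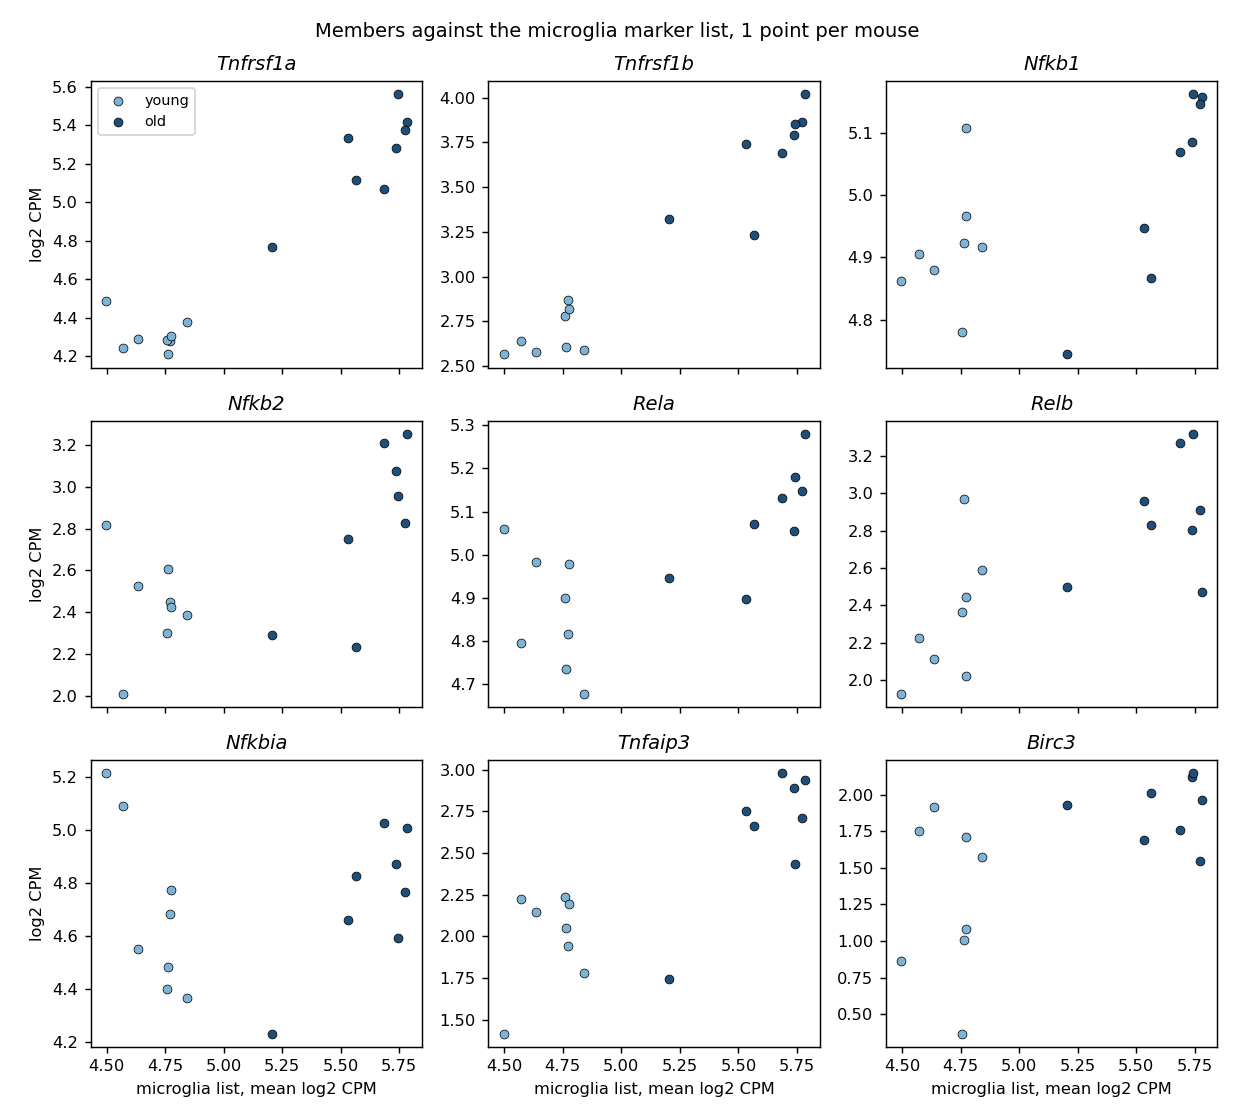
Log2 CPM of each tested member (vertical axes, each on its own range) against the mean log2 CPM of 10 microglial markers (horizontal axis) in 8 young (light) and 8 old (dark) mice, 1 point per mouse. Within the old mice r is 0.95 for Nfkb1 and 0.01 for Birc3; the old mouse at the far left of its group is library F.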

How the data were processed

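Whole spinal cords of 22 mice were sequenced on an Illumina HiSeq after TRIzol and Qiagen extraction. The authors aligned reads with STAR and quantified them with RSEM on Ensembl 88 (mm10); the submitters' processing notes also name SAMtools 1.3. The deposited expected counts were not normalized between libraries. A second deposited table held log2(FPKM + 1) values. All columns of both tables were used. They name groups and libraries, not the labels' replicate numbers.

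Expected counts were rounded. Each comparison was filtered (filterByExpr, minimum count 10, minimum total 15), scaled by TMM and tested with the quasi-likelihood test of edgeR 4.0.16 in R 4.3.3, with p-values adjusted by Benjamini-Hochberg across every tested gene. A gene passed at an adjusted p under 0.05. Standard errors were derived from the edgeR fit, as the absolute log2 fold change over the square root of the F statistic. Intervals were built on these errors, and both are approximate. The fit was tested on simulated data. Tnf and the microglial relations used exact permutation tests (SciPy 1.17.1). Positions are from GENCODE M21 (GRCm38), which matched 21842 of the 21995 genes, and promoter windows from RefSeq.

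The members and lists were chosen with earlier results of these data known. Named are all members, up to 4 genes per pathway list and comparison with the smallest adjusted p among those that passed, the first 2 genes of each marker list and those at 0 in all libraries, except some markers that are not reported here; others are marked as chosen after their values were seen. One listed T cell marker, Trac, was not found in the tables. Among 62 pairs of libraries of a group 0 were identical, and their counts differed beyond sampling noise (chi-square per degree of freedom at least 2.52). Alternatives were DESeq2 1.42.0, limma 3.58.1 on log2(FPKM + 1), RLE factors, other filters, a single fit of all libraries and leaving out each library; the leave-one-out fits in aging and the unfiltered fits of Tnf were chosen after the data were seen.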

Additional observations from a re-analysis of the deposited data

Results flagged for a closer look

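Tnf in young library B, at 0.341 CPM (3 counts), stood apart from the other 7 young libraries, which held at most 1 count. It was the only such value among 20 groups examined (10 members, 8 young and 8 old mice each), and lies at the detection limit. The rule gives about 1 in 20 by chance for normally distributed values. Counts this low are not so distributed, so that rate does not hold for Tnf.

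For 5 members the change in ALS differed from the change in aging by the test of the difference itself: Tnfrsf1a by 1.10, Nfkb2 by 1.04, Tnfrsf1b by 1.001, Nfkb1 by 0.47 and Rela by 0.45 on the log2 scale, each larger in ALS. Kit, sex and age differed between the experiments, and their part was not tested.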

How the results depend on the processing

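No paired analysis was possible because neither the labels nor the columns name pairs of mice. With limma on log2(FPKM + 1), 3 members passed in aging (Tnfrsf1a, Tnfrsf1b and Tnfaip3) in place of 7. With the added fold limit, 1 member passed in aging and 5 in ALS, 11 pathway list genes were higher and 0 lower in aging, and 1 was lower in ALS. Leaving out each library in turn left 5 to 7 members passing in aging, 6 to 10 in ALS and 3 to 7 for the difference between the comparisons (3 without SOD1-G93A library A). The same step left 1 to 9 pathway list genes lower in ALS, with 4 without control library B and 1 without SOD1-G93A library C, and 32 to 43 higher. The log2 fold change of Nfkbia in aging ranged from -0.00279 (without young library E, adjusted p = 0.991, edgeR) to 0.129 when each library was left out. In aging the calls of Nfkb2 and Birc3 were also lost without the count filter (adjusted p = 0.0520 and 0.0638), and Birc3 was not tested where at least 10 counts were asked of every library. DESeq2 passed 8 members in aging, Tnf among them, 8 in ALS and 5 for the difference. RLE factors changed no member's call. Depth limits Tnf above all: it had at most 18 counts in any library.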
